A study of Homo sapiens with 6 samples.

Results

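E2F1 is a transcription factor that drives genes of DNA replication and cell division once the retinoblastoma protein releases it, and it lends its name to a family of activators and repressors that share a TT-rich, GC-ended binding site. Trimethylation of lysine 27 on histone H3 (H3K27me3) is the mark that polycomb repressive complex 2 (PRC2) places through its catalytic subunit EZH2, and it is known for broad domains over silenced developmental genes. Promoters rich in GC and CpG are the usual site of E2F1 binding, and in the active state they commonly lack H3K27me3. The promoters described here are those where an E2F1 peak and a newly called H3K27me3 peak met in MDA-MB-231, an established human line of triple-negative breast cancer.

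Chromatin immunoprecipitation with sequencing (ChIP-seq) gave peak lists for 5 libraries of this line, each the only library of its group, out of 6 samples in the series. H3K27me3 was profiled in cells given either an shRNA that targets E2F1 (shE2F1) or a control shRNA, transduced for 24 h and then kept in puromycin at 2 µg/ml for 72 h. E2F1 was profiled in other cells of the line that carried no shRNA, namely untreated cells, cells in the solvent DMSO for 72 h and cells in 1 µM GSK126, which inhibits the methyltransferase activity of EZH2, for 72 h. The remaining sample, an input of untreated cells, has no values used here. E2F1 was thus not measured after the knockdown, H3K27me3 was not measured after GSK126, and the peak lists hold no measure of how far the shRNA lowered E2F1.

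The regions were selected on the peak calls themselves. A member is an H3K27me3 peak of shE2F1 with no control shRNA peak overlapping it by 1 bp, with its midpoint within 1 kb of a transcription start site (TSS) of a protein-coding gene, and overlapping at least 1 E2F1 peak of any of the 3 lists. This rule found 3550 regions among 135683 H3K27me3 peaks of shE2F1, and together they covered 1985 kb. "Gained" means here only that a peak was called in shE2F1 and none in control shRNA, so the level of the mark in the control cells lay below the calling threshold and is otherwise unknown. Because each group was 1 library, no difference between groups was tested. Intervals given in parentheses are exact binomial (Clopper-Pearson) or order-statistic 95% intervals over regions, and they cover counting error only.

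Depth could be read back from the narrow E2F1 peaks, since each fold and its p-value together fix the number of fragments at a summit. The lowest background was 0.668 fragments in the untreated E2F1 library, 1.82 in DMSO and 1.70 in GSK126, so the untreated list of 1056 peaks came from the shallowest library and the lists of 15703 and 14276 peaks from deeper ones. Broad H3K27me3 peaks have no summit and hold averages, so their depth is a rougher estimate. It rests on peaks under 300 bp, of which 1246 were solved for shE2F1 and 1510 for control shRNA. Their most frequent background was 1.27 fragments for shE2F1 and 1.02 for control shRNA, and the lists held 135683 and 123957 peaks. By this estimate the deeper of these libraries is the one in which regions were gained, and the part of depth in the gain was not tested.

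The binding sites at 9 members are shown because they carry the E2F motif close to the E2F1 summit and because the genes span the roles discussed here. The motif searched was TTNNCGC, where each N was C or G, on either strand. Each stretch of 29 bases was read from GRCh38 in the direction in which the motif reads, with the motif in capitals, and none of these bases lies in an annotated untranslated region.
CDKN2D (chr19:10569270-10569298, minus): accagccttctTTCCCGCctgccgggttc
NOLC1 (chr10:102152092-102152120, minus): aaactcgggacTTCCCGCgcagtctttct
E2F3 (chr6:20401815-20401843, minus): gaaactcggatTTCCCGCcggcttttcaa
LIN52 (chr14:74084921-74084949, plus): ggaacctcgttTTCCCGCcgacggttggc
CDC7 (chr1:91501034-91501062, plus): tgcagttccttTTCCCGCcccccttcgga
MCM3 (chr6:52284898-52284926, minus): ggatggtacgtTTCCCGCcaccgcggggc
MCM5 (chr22:35399934-35399962, minus): tgcggaacaatTTGGCGCgaaacttctgg
E2F1 (chr20:33686401-33686429, plus): ccaaatcctttTTGCCGCgaaagagccac
TTLL9 (chr20:31880149-31880177, minus): gttgtgtaaacTTCCCGCcagctggccgg
The motif lay 1 bp from the GSK126 summit at MCM5, 3 bp at TTLL9, 4 bp at NOLC1, 5 bp at LIN52, 7 bp at E2F1, 13 bp at CDKN2D and E2F3, 16 bp at CDC7 and 20 bp at MCM3. The strand named is the strand on which the motif reads, and not that of the gene. MCM5 shows the motif in its form with a central GG, and E2F1 in its form with a central GC.

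Most members did not have such a site at the summit, and a wider stretch shows what the promoters look like with and without it. The following 150 bases surround the strongest E2F1 summit and are given along the strand of the gene, in lower case with any E2F motif of either strand in capitals. CDKN2D and MCM5 have the motif, whereas ATRIP and CENPA have none in this window.
CDKN2D (chr19:10569196-10569345, minus): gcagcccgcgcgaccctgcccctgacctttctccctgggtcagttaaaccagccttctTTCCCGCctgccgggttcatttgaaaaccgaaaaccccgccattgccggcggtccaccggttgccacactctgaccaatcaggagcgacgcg
MCM5 (chr22:35399872-35400021, plus): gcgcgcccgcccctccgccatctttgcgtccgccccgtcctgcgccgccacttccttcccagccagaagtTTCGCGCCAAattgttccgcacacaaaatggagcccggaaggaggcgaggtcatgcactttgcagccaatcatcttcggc
ATRIP (chr3:48446541-48446690, plus): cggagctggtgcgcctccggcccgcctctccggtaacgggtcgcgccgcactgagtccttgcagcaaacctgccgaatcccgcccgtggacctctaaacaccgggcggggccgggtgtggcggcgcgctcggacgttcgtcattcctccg
CENPA (chr2:26764111-26764260, plus): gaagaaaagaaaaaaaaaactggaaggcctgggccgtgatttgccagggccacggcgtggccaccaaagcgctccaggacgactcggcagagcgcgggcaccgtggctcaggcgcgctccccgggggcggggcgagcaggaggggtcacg
The GC content of these stretches was 62.7% at CDKN2D, 63.3% at MCM5, 71.3% at ATRIP and 67.3% at CENPA. The 10 capitals at MCM5 are 2 overlapping motifs, 1 on each strand.

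The comparison of shE2F1 with control shRNA describes which H3K27me3 peaks lacked a control call, at promoters with and without an E2F1 peak. The E2F1 peaks came from other cells, which carried no shRNA. A change in the level of the mark was not tested, since that level is unknown where the control had no call. Among shE2F1 H3K27me3 peaks at protein-coding promoters, those with an E2F1 peak were gained more often than those without. Of all 135683 peaks of shE2F1, 43.5% were gained, and of the 10118 at protein-coding promoters 55.4% were. An E2F1 peak of any list overlapped 4904 of the promoter peaks, of which 72.4% (71.1% to 73.6%) were gained, and 5214 had none, of which 39.5% (38.2% to 40.9%) were gained. The members are the first of these gained sets, and the shares describe the calls that chose them. Read the other way, an E2F1 peak overlapped 63.3% (62.0% to 64.5%) of the 5610 gained promoter regions.

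The opposite call, a control peak without an shE2F1 peak, was rare among control peaks at E2F1-bound promoters. These are other regions than the members, which have no control peak by rule and so could not be lost. Control shRNA had 1263 promoter peaks with an E2F1 peak, and only 37 of them, or 2.93% (2.07% to 4.02%), had no shE2F1 peak. Of the 4689 control peaks at promoters without E2F1, 1058 were lost, or 22.6% (21.4% to 23.8%). At E2F1-bound promoters 3550 of 4904 shE2F1 peaks were gained and 37 of 1263 control peaks lost. At the others 2060 of 5214 were gained and 1058 of 4689 lost. These counts describe the calls that chose the members, and the parts of depth and of call strength in them were not tested. The shE2F1 promoter peaks that overlapped a control peak had a median −log10 q of 6.23 with E2F1 and 1.75 without. Losses were not split by the strength of the control call.

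**Figure D1:**
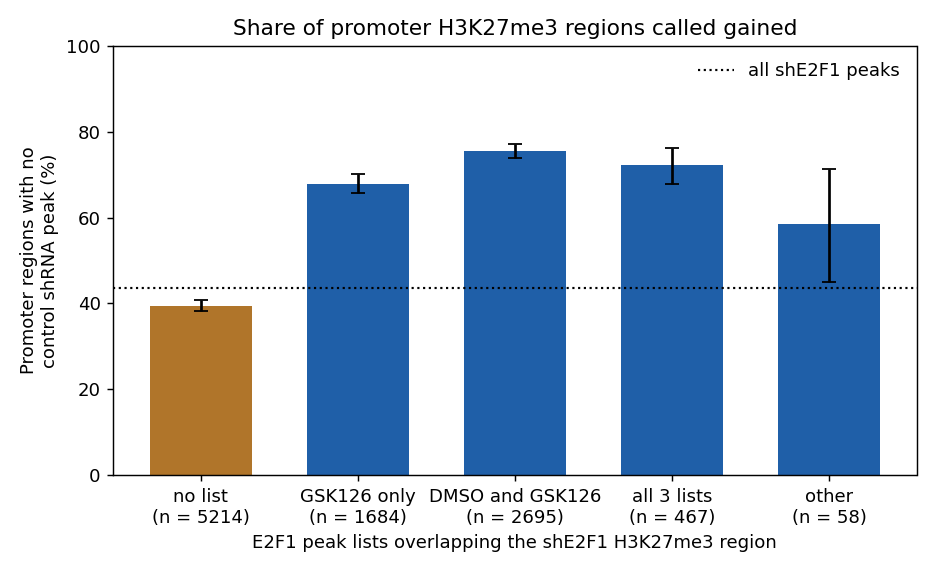
Share of shE2F1 H3K27me3 regions at protein-coding promoters with no control shRNA peak (vertical axis, %), by the E2F1 lists with an overlapping peak; bars show the share, error bars the exact 95% interval over regions, and the dotted line all shE2F1 peaks. Every bar with E2F1 except the small mixed set stands above 65%, whereas the bar without E2F1 stands at 39.5%.

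The share gained also varied with the E2F1 list. Regions overlapped by a GSK126 peak alone were gained in 67.9% (65.6% to 70.2%) of 1684 cases, those in DMSO and GSK126 in 75.5% (73.8% to 77.1%) of 2695, and those in all 3 lists in 72.2% (67.9% to 76.2%) of 467. Among the members themselves 2035, or 57.3%, had peaks in DMSO and GSK126, 1144, or 32.2%, in GSK126 alone, and 337, or 9.49% (8.55% to 10.5%), in all 3 lists. The other 34 had some other combination. The untreated list, the shortest of the 3, had a peak at 339 members.

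Above the weakest GSK126 peaks, the share gained did not rise with the level of E2F1. Ranked by the GSK126 fold into 4 groups of equal size, the share was 67.1% (64.4% to 69.8%) in the lowest group and 74.5%, 74.3% and 74.3% (71.7% to 76.7%) in the higher ones. In 4 such groups of the DMSO fold it was 75.4%, 75.4%, 75.3% and 72.9%, with overlapping intervals. The highest DMSO group, with folds from 8.83 to 61.1, was thus gained about as often as the lowest, with folds from 2.41 to 4.59.

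The share gained rose with the GC content of the region, and it did so with and without E2F1. At E2F1-bound promoters it was 37.3% of 59 regions under 50% GC, 46.0% at 50% to 60%, 56.1% at 60% to 65%, 69.1% at 65% to 70%, 78.6% at 70% to 75%, and 85.7% (83.7% to 87.5%) of 1372 regions at 75% or more. At promoters without E2F1 the same bins gave 33.4%, 34.7%, 45.8%, 54.5%, 71.0% and 88.2% (81.8% to 93.0%), the last from 144 regions. The share was higher with E2F1, with separate intervals, at 50% to 60%, 60% to 65% and 65% to 70%. The intervals overlapped under 50%, at 70% to 75% and at 75% or more, where the share was the lower one with E2F1. When the regions without E2F1 were weighted to the GC content of those with E2F1, their share rose from 39.5% to 65.6%, against 72.4% with E2F1, and weighting by both GC content and −log10 q gave 64.1%. The loss of control peaks showed no such rise, since 2.39% of control peaks with E2F1 at 75% GC or more were lost and 10.3% of the 39 without. The part of GC content in the difference between promoters with and without E2F1 was not tested further.

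**Figure D2:**
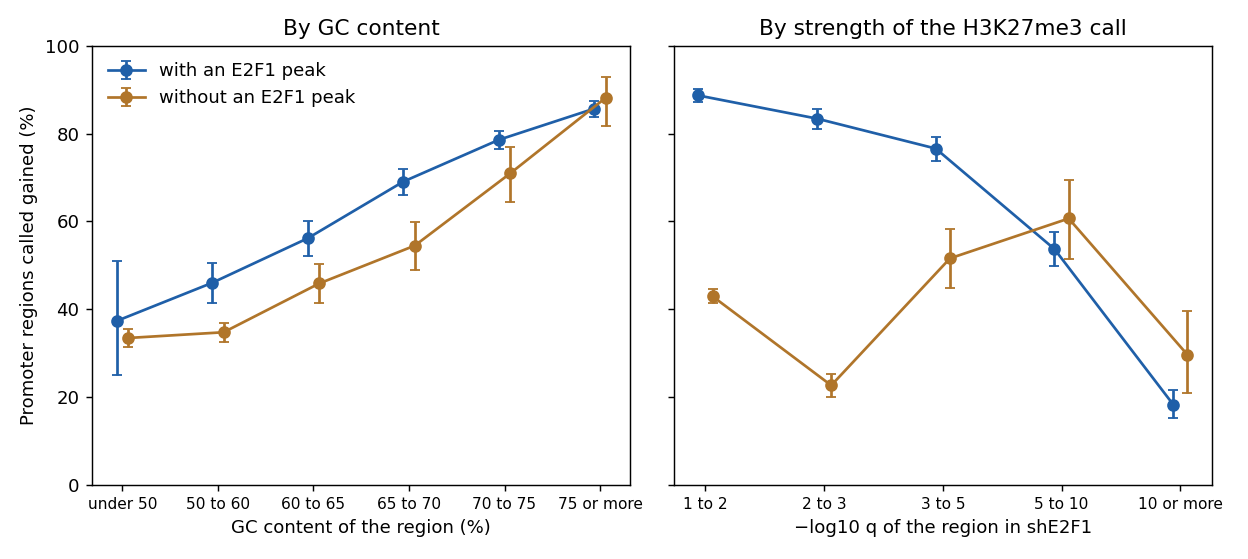
Share of shE2F1 H3K27me3 promoter regions called gained (vertical axes, %), by GC content of the region (left) and by its −log10 q (right), with an E2F1 peak (blue) and without (brown); points show the share and error bars the exact 95% interval over regions. Both lines rise with GC content and meet at 75% or more, and the blue line falls from 88.7% among the weakest calls to 18.2% among the strongest.

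With E2F1, gain also went with weak H3K27me3 calls. The −log10 q of a peak states how significant its excess over local background is, whereas the fold states the size of that excess. The authors kept broad peaks with a −log10 q from 1 upwards. With E2F1, 88.7% of the regions with a −log10 q of 1 to 2 were gained, 83.4% at 2 to 3, 76.6% at 3 to 5, 53.7% (49.8% to 57.5%) at 5 to 10, and 18.2% (15.2% to 21.7%) at 10 or more. Without E2F1 the shares were 42.9%, 22.6%, 51.6%, 60.7% (51.4% to 69.4%) and 29.6% (20.8% to 39.7%), with no steady fall. Among regions of at least 5, E2F1-bound promoters were thus not gained more often than the others. Most H3K27me3 regions of 10 or more at E2F1-bound promoters overlapped a peak of control shRNA, whose list the authors kept from 1 upwards too. When every list was held to −log10 q 5 or more, control peaks included, 73.6% of E2F1-bound promoter regions were gained. That cut also removed control peaks under 5, so regions that overlapped only such peaks were then called gained. The share without E2F1 was not computed at this cut.

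The members were accordingly short and moderate peaks. Their median fold over background was 3.17 (quartiles 2.79 and 3.76, highest 11.7), against 4.63 at E2F1-bound promoter regions that control shRNA shared, which are called retained here. The median −log10 q was 2.25 (quartiles 1.61 and 3.49), against 6.23 in retained regions. Of the members, 2041, or 57.5%, had a −log10 q of at least 2, 461, or 13.0%, at least 5, and 104 at least 10. The median width was 471 bp (quartiles 332 and 692 bp), against 784 bp in retained regions with E2F1 and 1389 bp in retained regions without. Gained regions without E2F1 had the same median width, 471 bp, but a lower −log10 q of 1.47.

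Members sat on the start site. The median midpoint lay 7 bp downstream of the nearest TSS (4 to 10 bp, quartiles −53 and 94 bp), and 80.0% (78.7% to 81.3%) lay within 200 bp of it. Gained regions without E2F1 were spread over the whole window, with 41.4% (39.2% to 43.5%) within 200 bp, whereas retained regions with E2F1 had 75.2%. The midpoint was in an exon outside the coding sequence (UTR) in 41.2% of members, in an intron in 24.8%, between genes in 18.0% and in a coding exon in 13.2%. A TSS lay inside the region in 84.9% of members and 52.7% of gained regions without E2F1. Among the wider retained regions it did in 95.5% of those with E2F1 and 73.0% of those without.

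**Figure D3:**
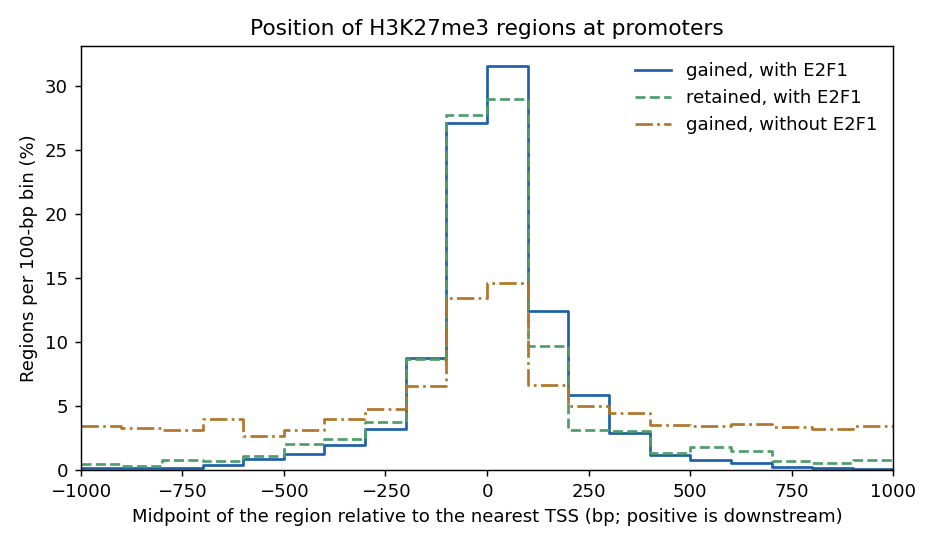
Position of the midpoint of H3K27me3 regions relative to the nearest protein-coding TSS (horizontal axis, bp) as the share of each class per 100-bp bin (vertical axis, %), for gained regions with E2F1 (solid), retained regions with E2F1 (dashed) and gained regions without E2F1 (dash-dotted). The members pile up on both sides of the TSS, as retained regions with E2F1 do, whereas gained regions without E2F1 have a lower peak and a flat floor.

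They were also isolated. The nearest control shRNA peak lay at a median of 40314.5 bp from a member, against 3791.5 bp from gained regions without E2F1. Within 5 kb of a control peak lay 9.55% of members and 55.1% of gained regions without E2F1, and within 1000 bp 1.38% and 20.9%. Few members thus lay beside a control peak.

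In sequence the members were CpG-rich. Their median GC content was 72.6% (72.4% to 72.8%), and 93.1% of them exceeded 60%. The median was 67.3% in retained regions with E2F1, 54.9% in gained regions without and 51.1% in retained regions without. The observed over expected CpG ratio, which falls where CpG has been lost from the genome, was 0.904 in members, 0.856 in retained regions with E2F1 and 0.343 in gained regions without. Divergent promoters, where genes on both strands start, made up 13.8% of members, 16.0% of retained regions with E2F1 and 3.69% of gained regions without.

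The E2F1 fold was similar whether H3K27me3 was gained or retained. The strongest E2F1 peak at each member had a median fold of 8.24 in untreated cells (339 members), 6.03 in DMSO (2404) and 8.12 in GSK126 (3518). At retained regions the medians were 8.21, 6.16 and 7.50, and over all promoter peaks of each list 8.12, 5.79 and 7.25. A DMSO peak was present at 67.7% (66.2% to 69.3%) of members and 60.04% (57.4% to 62.7%) of retained regions. The E2F1 summit lay inside the H3K27me3 region at 68.9% of the members with a GSK126 peak and at 84.7% of such retained regions, which were wider. Its median distance from the midpoint was 168 bp at members and 194 bp at retained regions.

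The E2F motif was about as frequent at members as at other E2F1-bound promoters. At the strongest E2F1 peak of each member, 31.3% (29.8% to 32.9%) had the motif within 100 bp of the summit. By list, the motif was under 52.4% (47.1% to 57.8%) of untreated, 35.7% of DMSO and 31.25% of GSK126 summits at gained regions. At retained regions the shares were 53.4%, 35.0% and 29.6%, and at promoters with E2F1 and no shE2F1 H3K27me3 peak 57.5%, 36.2% and 30.8%. The intervals overlapped in all 3 lists. Absence of the letters says only that this window does not hold them.

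Seen from the genes, promoters with a member were GC-rich, as were those with a retained E2F1-bound region. RefSeq promoter windows of GRCh38, from 250 bp before to 50 bp after a gene start, were matched for 4059 of the 4115 genes with a member, and each motif was searched on both strands. The E2F motif was in 25.1% (23.8% to 26.4%) of them, against 17.1% of all 19625 matched windows and 24.2% of windows of genes with an E2F1 summit and no shE2F1 H3K27me3. The Sp1-type box GGGCGG was in 80.9%, against 61.6% of all windows, 76.8% of those with E2F1 alone and 76.5% of those with only a retained E2F1-bound region. The TATA box TATAAA was in 3.70%, against 9.67% of all windows and 3.57% of the retained ones. The ETS site CCGGAAGT was in 9.63%, against 6.12% of all windows, 7.78% of those with E2F1 alone and 9.99% of the retained ones. As a ratio, the widest contrast with retained genes was the cAMP response element TGACGTCA, in 3.55% (3.0% to 4.16%) of windows of genes with a member and 7.52% (6.26% to 8.95%) of those with only a retained E2F1-bound region. Windows of genes with members had a median GC content of 69.3%, against 63.7% over all windows and 68.7% over the retained ones, and the part of base content in these shares was not tested.

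E2F1 enrichment was higher after GSK126 than in DMSO at nearly all members, as at E2F1 peaks in general. Of 2372 members with both peaks, 2306, or 97.2% (96.5% to 97.8%), had the higher fold in GSK126, and over all 5962 shared promoter peaks 96.9% did. The median log2 ratio was 0.74 (0.72 to 0.75) at members, 0.71 (0.68 to 0.73) at retained regions and 0.73 at promoters without an shE2F1 H3K27me3 peak. Members in all 3 lists had a median log2 ratio of 0.80 (0.77 to 0.82), and those in DMSO and GSK126 only 0.72 (0.70 to 0.74). The shift was thus common to promoter peaks of this pair of libraries. With 1 library each, a change in binding and a difference in immunoprecipitation cannot be told apart.

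**Figure D4:**
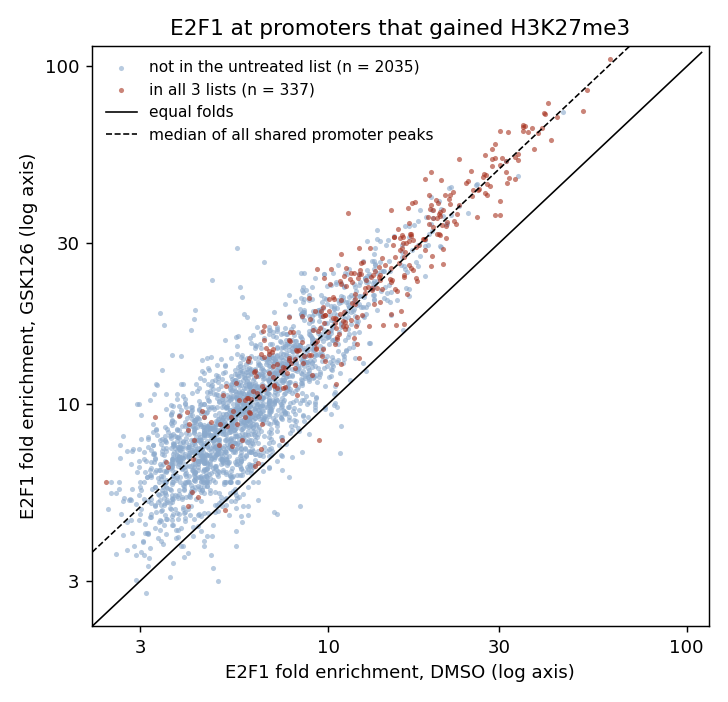
Fold enrichment of E2F1 at members with a peak in both lists, in DMSO (horizontal log axis) and GSK126 (vertical log axis); each point is 1 member, dark points also have an untreated peak, the solid line marks equal folds and the dashed line the median ratio of all shared promoter peaks. The points follow the dashed line over the whole range, and 2306 of 2372 lie above equality.

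Single members departed from this shift in both directions. The highest log2 ratio, 2.45, was at DOT1L, which encodes the H3K79 methyltransferase, where the fold was 3.39 in DMSO and 18.6 in GSK126 from 23 and 94 fragments. ING2, a reader of H3K4 methylation, had 5.56 and 29.0 (log2 ratio 2.38), and NFYA, a subunit of the CCAAT-binding factor, 3.49 and 17.1 (2.29). The lowest, −0.74, was at ALG12, a mannosyltransferase, where the fold was 8.33 in DMSO and 4.98 in GSK126 from 33 and 32 fragments. HSPA9, the mitochondrial HSP70, had 10.8 and 7.15 (−0.59). None of these had an untreated E2F1 peak.

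The strongest H3K27me3 calls among the members stood at genes of unrelated function. The highest −log10 q, 37.2, was at TTLL9, which encodes a probable tubulin polyglutamylase, on chr20:31879813-31881156 (GRCh38) in an intron. This region was 1344 bp wide with a fold of 9.53, its midpoint was 637 bp from the TSS, and its E2F1 folds were 9.41 without treatment, 14.9 with DMSO and 18.5 with GSK126. RBM18, an RNA-binding protein gene, followed with a −log10 q of 35.7 and the highest fold of all members, 11.7, on chr9:122264576-122265061 in a UTR exon, where E2F1 was called in DMSO (3.86) and GSK126 (6.10) only. Among the 15 members with the highest −log10 q, E2F1 folds ran from 3.06 (ANAPC10) to 14.9 (TTLL9) where DMSO had a peak, and only TTLL9, HAUS5 and ATRIP had untreated peaks.

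Several of these strong members belong to basic cell functions. SAP30BP, a transcription and splicing factor gene, had a −log10 q of 32.0 and an H3K27me3 fold of 9.90 over 276 bp. In the same order of values ATG5, required for autophagy, had 26.0 and 9.98, and NUP133, a nuclear pore scaffold gene, 25.2 and 8.20. PFAS, an enzyme of purine synthesis, had 23.6 and 6.60, and NDUFV1, a core subunit of respiratory complex I, also 23.6 with a fold of 6.90. HAUS5, a subunit of the augmin complex of the spindle, had 23.55 and 6.59, with its region on chr19:35612664-35612967 over a coding exon. RPL9, a protein of the large ribosomal subunit, had 22.7 and 7.02, and ATRIP, the partner of the checkpoint kinase ATR, 21.3 and 7.41.

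The widest members were a different set. TTC9 had a region of 3778 bp, SEPTIN5 of 3325 bp, CD247 of 3211 bp, TTLL11 of 2604 bp and PALM2AKAP2 of 2343 bp. Their −log10 q ranged from 1.55 at CD247 to 4.74 at PALM2AKAP2, and none had an untreated E2F1 peak. CD247, the zeta chain of the T cell receptor, and SEPTIN5, a septin of nerve terminals, are not usual E2F targets.

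The 10 members with the highest untreated E2F1 fold had −log10 q of H3K27me3 from 1.19 at POGLUT3 to 6.15 at NOLC1, beside a median of 2.25 over all members and 2.64 over those with E2F1 in all 3 lists. CDKN2D, the CDK4 and CDK6 inhibitor p19, had the highest E2F1 folds of all members in each list, 41.7 without treatment, 61.1 with DMSO and 105 with GSK126, from 93, 398 and 640 fragments. Where 3 E2F1 folds follow each other below, they are those of untreated cells, DMSO and GSK126 in this order. Its H3K27me3 region, on chr19:10568541-10569437, had 3.52-fold enrichment and −log10 q 3.59. NOLC1, a nucleolar chaperone of ribosome synthesis, had E2F1 folds of 35.7, 26.4 and 43.4 and an H3K27me3 fold of 3.84 with a −log10 q of 6.15. GORASP2, a Golgi stacking protein gene, had 31.2, 20.2 and 35.5 and an H3K27me3 fold of 3.31.

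Cell cycle and replication genes were among the others in this group. HELLS, a chromatin remodeller, had E2F1 folds of 24.7, 30.3 and 51.1 and an H3K27me3 fold of 2.65. CDC7, the kinase that fires replication origins, had 22.6, 37.6 and 57.0 with an H3K27me3 fold of 2.498 and a −log10 q of 1.43 over 250 bp. TYMS, thymidylate synthase, had 20.4, 39.5 and 65.9 with an H3K27me3 fold of 2.73 and a −log10 q of 1.33. POGLUT3, a glycosyltransferase gene, had 21.2, 33.8 and 54.9 with an H3K27me3 fold of 2.36, and TMEM18, a transmembrane protein gene, had 21.2, 52.8 and 85.4 with 3.94. E2F3 and LIN52 complete the group.

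Members lay at 4115 protein-coding genes, 20.6% of the 19970 on the chromosomes with peaks. Of these, 91 genes had more than 1 member, and 616 members, or 17.4%, lay near the TSSs of more than 1 gene, so that a gene count exceeds the region count. Some values given for 1 gene are those of such a shared region. Examples are RBM18 with MRRF, RPL9 with LIAS, MCM4 with PRKDC, and AURKA with CSTF1. The TSS nearest a shared region is not always that of the gene named. Of the genes with an E2F1 summit within 1 kb of a TSS, 44.7% of the 1168 in untreated cells, 43.8% of the 6698 in DMSO and 39.5% of the 10279 in GSK126 had a member. Because the rule requires E2F1, these last shares are the ones to read gene lists of E2F1 targets against. By chromosome the share of genes ran from 7.57% (5.89% to 9.54%) on X to 27.4% (22.2% to 33.2%) on chromosome 18. Genes with a GSK126 E2F1 summit made up 32.7% of those on X and 56.4% on chromosome 18.

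The E2F family and its pocket protein partners had members at 12 of 18 genes. These were the activators E2F1 and E2F3, the repressors E2F4, E2F6, E2F7 and E2F8, the dimer partner TFDP2, the retinoblastoma gene RB1, and LIN9, LIN52, LIN54 and MYBL2 of the MuvB and MYB complexes. All of these calls were weak, with folds of 2.60 to 3.97 and −log10 q of 1.31 to 3.97. E2F1 itself had a region on chr20:33685808-33686591 over a coding exon, 784 bp wide, at 2.91-fold enrichment and −log10 q 2.96, and its E2F1 folds were 13.3, 20.5 and 31.7. At RB1 the H3K27me3 fold was 3.73 and the E2F1 folds were 5.90, 9.22 and 18.9. At E2F3 the H3K27me3 fold was 2.84 and the E2F1 folds were 24.1, 31.3 and 52.3.

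The members of this family that did not qualify differed in how. The pocket protein genes RBL1 and RBL2 had retained regions, stronger than any gained ones here, with folds of 8.80 and 5.06. E2F2 and TFDP1 had E2F1 peaks (GSK126 folds of 19.5 and 60.7) and no shE2F1 H3K27me3 region. E2F5 and LIN37 had neither. The share with a member was 66.7% (41.0% to 86.7%), beside 39.5% of all genes with a GSK126 E2F1 summit. It rested on weak calls, since 0 of the genes with a member in this family reached a −log10 q of 5. In PRC2 0 did, and among tRNA synthetases 3. With every list held to −log10 q 2 or more, the count was 7 of 18. At 5 it was 2 of 18, with 5 of 13 for PRC2 and 6 of 20 for tRNA synthetases. These cuts also dropped weaker control peaks, so regions that overlapped such a peak then counted as gained.

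Of 25 usual E2F target genes, all with an E2F1 summit, 11 had a member, or 44% (24.4% to 65.1%). Of all genes with a GSK126 E2F1 summit, 39.5% did. The strongest was POLA1, the catalytic subunit of DNA polymerase alpha, with an H3K27me3 fold of 7.84 and a −log10 q of 13.6 over 330 bp on chrX:24693753-24694082. With the H3K27me3 fold and then the −log10 q in parentheses, MCM5 (5.14 and 6.56), MCM3 (4.53 and 5.20), MCM4 (4.29 and 3.46) and MCM7 (3.21 and 2.91), subunits of the replicative helicase, were members. MCM2 and MCM6 of the same helicase had E2F1 folds of 20.5 and 22.9 in DMSO and no H3K27me3 region. CDT1, CCNA2, CCNE1, MYBL2 and TYMS were members with −log10 q of 1.33 to 2.98. RRM1 and RBL1 had retained regions, and 12 genes had no shE2F1 H3K27me3 region. PCNA, CDC6, CDK1, RRM2 and TK1 were among these 12, with E2F1 folds of 41.3 (CDC6) to 70.5 (PCNA) in GSK126.

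Replication genes had members at 22 of 57, or 38.6%, about the 39.5% of all genes with a GSK126 E2F1 summit. Their −log10 q ran from 1.14 at CHAF1B to 13.6 at POLA1. After POLA1 came TIPIN, of the fork protection complex, with an H3K27me3 fold of 7.06 and a −log10 q of 12.1, and GINS1, of the helicase complex, with 4.81 and 10.4. The TIPIN region also lay within 1 kb of a TSS of MAP2K1. At GINS1 E2F1 was at 20.3 without treatment, 18.6 with DMSO and 46.3 with GSK126. Only 5 of the 22 reached a −log10 q of 5.

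DNA repair and checkpoint genes had members at 25 of 69, or 36.2%, beside 39.5% of all genes with a GSK126 E2F1 summit. ATRIP was the strongest, and FANCD2, the monoubiquitinated centre of the Fanconi pathway, had 5.66-fold enrichment and −log10 q 12.2, with E2F1 at 13.4 in DMSO and 21.0 in GSK126. PARP2, a DNA break sensor, had 5.04 and 10.1, with E2F1 at 12.04, 11.6 and 17.8. With the H3K27me3 fold and −log10 q again in parentheses, CHEK1 (3.69 and 3.39), ATR (2.92 and 1.73) and WEE1 (2.67 and 1.83) were members with weaker calls.

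Mitosis and spindle checkpoint genes had members at 25 of 62, or 40.3%, about the 39.5% of all genes with a GSK126 E2F1 summit. By the same pair of values, CENPI (5.13 and 7.97) and CENPA (4.90 and 7.27), a centromere protein and the centromeric histone H3 variant, were the only ones with a −log10 q of at least 5. The kinases AURKA (3.92 and 4.97), AURKB (2.65 and 1.31), BUB1 (3.71 and 3.68) and TTK (3.53 and 2.25) were members, as was SPC25 (3.78 and 4.85), of the kinetochore NDC80 complex. CCNB1, encoding cyclin B1, was a member near the limit of calling, with a −log10 q of 1.05. PLK1 and CDC20 had E2F1 in GSK126 and no shE2F1 H3K27me3 region at their promoters.

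**Figure D5:**
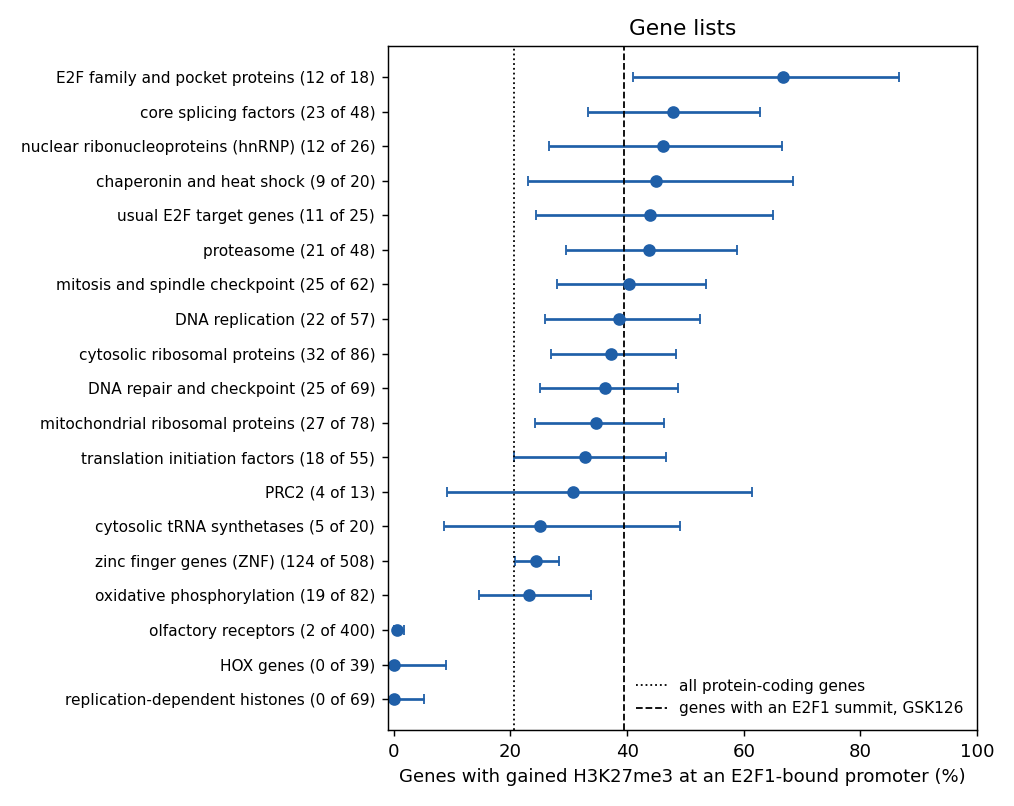
Share of the genes of each list with at least 1 member region (horizontal axis, %), with counts beside the name; points show the share, bars the exact 95% interval over genes, the dotted line all protein-coding genes (20.6%) and the dashed line genes with a GSK126 E2F1 summit (39.5%). The E2F family, splicing, hnRNP, chaperone, usual E2F target, proteasome and mitosis lists lie above the dashed line. Of these, only the interval of the E2F family (41.0% to 86.7%) leaves that line out. Oxidative phosphorylation (23.2%) lies close to the dotted line, and HOX genes, histones and olfactory receptors lie near 0. The lists differ in how many of their genes have an E2F1 peak.

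Members were also found at lists that are not cell cycle genes. Core splicing factors had members at 23 of 48 genes, or 47.9% (33.3% to 62.8%), the proteasome at 21 of 48, or 43.75%, chaperonins and heat shock proteins at 9 of 20 and hnRNP genes at 12 of 26. Cytosolic ribosomal protein genes had 32 of 86, or 37.2% (27.02% to 48.3%), and mitochondrial ribosomal protein genes 27 of 78. These intervals overlap with those of the E2F target, replication, repair and mitosis lists. Oxidative phosphorylation, with 19 of 82 or 23.2%, and zinc finger genes, with 124 of 508 or 24.4%, lay close to the 20.6% of all genes. The rule requires E2F1, and an E2F1 peak was present at only 53 of these 82 and 345 of these 508. It was present at 42 of 48 splicing factor genes and 40 of 48 proteasome genes. Of the ribosomal protein genes, 76 of 86 cytosolic and 54 of 78 mitochondrial ones had an E2F1 peak, as did 42 of 55 translation initiation factor genes. Of all genes with a GSK126 E2F1 summit, 39.5% had a member. tRNA synthetases had 5 of 20 and translation initiation factors 18 of 55, or 32.7%. When the GSK126 list was left out, the proteasome had 9 of 48 and zinc finger genes 62 of 508, whereas the usual E2F targets stayed at 11, replication genes at 22 and the E2F family at 12. Over these 20 lists, only the proteasome and zinc finger counts moved by more than 1.5 times under this change.

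Single ribosomal protein genes had strong calls, while the median −log10 q of the 32 with a member was 2.90. RPL9 stood at −log10 q 22.7, RPS16 at 13.8 with a fold of 6.43, RPL7 at 11.4 with 5.64, RPS13 at 8.47 with 5.23 and RPL5 at 8.36 with 5.67, and 10 of the 32 genes reached 5. Only RPS13 of these had an untreated E2F1 peak, at a fold of 17.4. Among splicing factors SF3B2 had a −log10 q of 10.2 and SNRPC 7.06, and among tRNA synthetases IARS1 had 10.7 and YARS1 9.21.

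PRC2 and its accessory subunits had members at 4 of 13 genes, or 30.8%, beside 39.5% of all genes with a GSK126 E2F1 summit. RBBP4, a histone-binding subunit, had 3.30-fold enrichment and −log10 q 4.51. AEBP2, PHF1 and EZH1, the paralogue of EZH2, had H3K27me3 folds of 3.18, 2.51 and 2.81. At 6 others the mark was already called in control shRNA, including EZH2 (fold 4.59, with E2F1 at 31.3, 48.7 and 96.0), EED (6.31) and JARID2 (7.90). SUZ12 had E2F1 in DMSO and GSK126 and no shE2F1 H3K27me3 region.

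HOX genes, which are silenced by H3K27me3 in many cell types, had no member. Of 39 HOX genes 0 had one, where the exact interval reaches 9.03%, and 36 of them had no shE2F1 H3K27me3 region of any kind at a promoter. Only 5 HOX genes had the E2F1 peak that the rule requires, and 2 had a gained region without E2F1. Of 69 replication-dependent histone genes 0 had a member, where the interval reaches 5.21%, and 33 had an E2F1 peak. Of the olfactory receptor genes, 2 of 400 had a member, or 0.5%. GAPDH, which is expressed in nearly all cells, was a member, with a region of 991 bp, 3.29-fold enrichment and −log10 q 2.53. ACTB, another such gene, had a retained region. By contrast, 13 of 48 core splicing factor genes and 15 of 48 proteasome genes had no shE2F1 region. At these lists the promoter calls thus differed from the broad domains over silenced developmental genes for which the mark is known. The reason was not tested, and whether HOX genes are silent in this line was not measured here. Each gained call is a peak call and not a measured level of H3K27me3.

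Regions at the limits of the rule show how near the thresholds some members were. The farthest midpoint inside was 977 bp from the TSS of GCNT4, and the nearest gained and E2F1-bound region outside lay 1004 bp away. The smallest gap of a member to a control peak was 7 bp, at LCP1, and the smallest overlap that made an E2F1-bound region retained was 2 bp, at SESN3. At RBM23 the E2F1 peak overlapped the member by 1 bp, and at ARID1B it missed the gained region by 2 bp. The weakest member, at CCDC96, had a −log10 q of 1.01. Of the members, 22 had an E2F1 overlap under 50 bp, the median overlap was 404 bp, and 1509 had a −log10 q under 2.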

How the data were processed

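The submitters' processing notes and methods give paired-end reads trimmed with cutadapt, aligned to GRCh38 with Bowtie2 and called with MACS2, in narrow mode for E2F1 and broad mode for H3K27me3, 1 library at a time. The deposited lists give for each peak a score (not used), the fold enrichment (a ratio, averaged over a broad peak), −log10 of the p-value and of the q-value, and for narrow peaks a summit offset. Overlaps needed 1 bp. TSSs were those of GENCODE release 44 protein-coding genes. Sequence was read from GRCh38. Fragments were solved from fold and p-value at a tolerance of 2e-05, tested on simulated single summits but not on averages over broad peaks. Python 3 packages numpy, pandas, scipy and pysam were used.

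The members and the gene lists were chosen with earlier results of these data known. With 1 library a group no test was made and no spread between replicates can be given. Named genes were the 15 members with the highest −log10 q, the 10 with the highest untreated E2F1 fold, the 5 widest, up to 5 for each list, genes set by name, the 5 highest and 5 lowest ratios, and the edges. Other genes of the lists in the text were chosen after their values were seen. Alternatives changed the −log10 q, distances, transcript types and E2F1 lists.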

Additional observations from a re-analysis of the deposited data

How the results depend on the processing

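Of 103 recomputed values 65 kept to the interval of the reported value, or for counts within 1.5 times, and 38 did not. No median or share turned sign.

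With every list held to −log10 q 2 or more, the members fell to 2353, 73.2% of gained promoter regions had E2F1, 10.96% of members had all 3 lists, and the median width was 527 bp and the GC content 71.8%. At 5 these became 876, 81.1%, 12.3%, 608 bp and 69.6%, with 1072 genes and a median midpoint at 0 bp. Both cuts also removed weaker control peaks, so regions that overlapped only such peaks entered these counts. With the control list whole, 461 members reached a −log10 q of 5. Raising shE2F1 alone to 2 gave 2041 members at 2439 genes, 82.0% with E2F1, 63.7% of E2F1-bound regions gained, 11.1% with all 3 lists, a log2 ratio of 0.76, a midpoint at 3 bp, 499 bp and 72.1% GC. With an E2F1 summit inside the region, 47.7% of gained regions had E2F1, 69.2% of E2F1-bound regions were gained, 8.44% of members had all 3 lists and the width was 514 bp. Leaving out the GSK126 list gave 42.9%, 74.7%, a motif share of 35.7% and 485.5 bp. The share of gained regions with E2F1 was 68.2% without control peaks within 1000 bp, 71.5% within 500 bp of a TSS and 69.8% with protein_coding transcripts only, where the midpoint lay at 15 bp. The motif share was 25.04% within 50 bp and 8.70% for the longer motif, and the log2 ratio from fragments over the lowest background was 0.78. Weighted to the GC content of the E2F1-bound regions, 65.6% of regions without E2F1 were gained, and with −log10 q as well 64.1%, both chosen after seeing the data. Of 200 gene list counts 166 stayed within 1.5 times.

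No paired analysis was possible because each group is 1 library. No replicate bounds any value here, and broad peaks near the calling limit, at a −log10 q under 2, make up 1509 of the members.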
